A study of Homo sapiens with 118 samples.

Results

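The Polycomb group genes described here were EZH1, EZH2, EED, SUZ12, JARID2, BMI1, PCGF2, CBX2 and CBX7. They were found in the count table by symbol, as the rows whose name without its trailing probe number equals one of the 9 symbols. This gave 10 probe rows of 22069 in all, since BMI1 had 2 probes and the other genes had 1 each. The rows are written as in the table, for example EZH2_2282. The data were TempO-Seq libraries, in which pairs of detector probes anneal side by side on a target RNA and are ligated and counted. The cells were HepaRG, an established human liver cell line, which the protocol describes as differentiated, while the cell type label calls them liver progenitor cells. Each culture was exposed for 72 h, with daily renewal, to 1 of 8 histone deacetylase inhibitors at 5 concentrations.

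All groups shared the cell line and the exposure time, and every group held an inhibitor. The concentrations are called C1 (lowest) to C5 (highest) of each chemical, and they differed between chemicals. On plate H lay apicidin, a cyclic tetrapeptide (0.041722 to 0.86 µM), mocetinostat, a benzamide (0.177222 to 3.9 µM), panobinostat, a hydroxamate (0.001468 to 0.084 µM), trichostatin A, a hydroxamate (0.018811 to 1.5237 µM), and valproic acid, a carboxylic acid. Plate E held the hydroxamates scriptaid (4.94 to 94.5 µM) and vorinostat (0.404778 to 23.5 µM) and the benzamide tacedinaline (1.14333 to 44 µM). The dose labels of valproic acid run from 100.478 to 3038, while the protocol gives smaller numbers in µM, so its unit is not settled. Of 40 groups, 38 had 3 libraries, numbered replicates 1, 2 and 3, and each number marks 1 of 3 HepaRG batches. For panobinostat C3 and for trichostatin A C4, replicate 3 was not analysed here. Solvent controls were not analysed here, so C1 of the same chemical was the reference, and a response already present at C1 would not be seen.

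Polycomb proteins keep genes silent through marks on histones. Polycomb repressive complex 2 (PRC2) methylates lysine 27 of histone H3. Its catalytic subunit is EZH2 or EZH1, its core is completed by EED and SUZ12, and JARID2 is an accessory subunit that helps bring it to chromatin. Polycomb repressive complex 1 (PRC1) places ubiquitin on histone H2A. BMI1 and PCGF2 are alternative RING-finger subunits of that complex, and CBX2 and CBX7 are alternative chromobox subunits that read the methyl mark. EZH2 is known as the form that accompanies dividing cells, and EZH1 as the form that persists in resting tissue.

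JARID2, CBX2 and EZH2 had the calls at the highest concentration. The stretches before the annotated starts of JARID2 and EZH2 are shown here for reference, and that of CBX2 was not analysed here. They are the 250 bases before each start that RefSeq annotates on GRCh38.p14, written 5′ to 3′ on the gene's own strand, and the count table does not say which start the probed transcripts used. Capitals mark exact matches on either strand to 4 kinds of motif. The CCAAT box was searched by the letters of its name. The GC box was searched as GGGCGG. For the TATA box the letters were TATAAA. An E2F-type match was TTTCCCGC or TTTGGCGC. Neighbouring matches can overlap, as GC boxes do in some of these stretches.
JARID2 first start (chr6:15245819-15246068, plus strand): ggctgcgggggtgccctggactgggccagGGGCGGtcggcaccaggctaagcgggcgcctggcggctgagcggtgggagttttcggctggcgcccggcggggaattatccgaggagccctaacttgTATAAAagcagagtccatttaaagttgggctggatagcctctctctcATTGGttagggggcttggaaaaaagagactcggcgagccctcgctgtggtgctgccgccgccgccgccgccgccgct
JARID2 second start (chr6:15248605-15248854, plus strand): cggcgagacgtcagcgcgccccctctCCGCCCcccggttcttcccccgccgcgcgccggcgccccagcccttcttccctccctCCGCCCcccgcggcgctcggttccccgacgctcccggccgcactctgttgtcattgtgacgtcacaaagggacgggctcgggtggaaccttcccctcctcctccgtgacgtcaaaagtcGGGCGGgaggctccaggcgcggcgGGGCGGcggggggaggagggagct
EZH2 first start (chr7:148883486-148883735, minus strand): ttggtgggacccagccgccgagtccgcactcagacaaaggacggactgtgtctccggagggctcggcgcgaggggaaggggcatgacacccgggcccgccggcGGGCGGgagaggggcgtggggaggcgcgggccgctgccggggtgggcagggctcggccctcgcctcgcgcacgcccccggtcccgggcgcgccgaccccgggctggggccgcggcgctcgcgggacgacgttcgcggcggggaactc
EZH2 second start (chr7:148884292-148884541, minus strand): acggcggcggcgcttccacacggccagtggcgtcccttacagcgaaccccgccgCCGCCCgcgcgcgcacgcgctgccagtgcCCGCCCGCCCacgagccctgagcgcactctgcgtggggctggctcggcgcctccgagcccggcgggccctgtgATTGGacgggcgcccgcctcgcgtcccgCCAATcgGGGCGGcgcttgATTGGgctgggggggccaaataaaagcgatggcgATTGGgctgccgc
The second EZH2 stretch held 4 CCAAT and 4 GC box matches, at 94, 66, 47 and 13 and at 196, 167, 163 and 59 bases before the start. The first EZH2 stretch held 1 GC box match. JARID2 had 1 CCAAT, 1 GC and 1 TATA box match before its first start and 4 GC box matches before its second. Neither gene had an E2F-type match in these windows, while SUZ12 had 1. Of 35116 such windows of RefSeq genes, 32% held a CCAAT box, 42.6% a GC box, 10.7% a TATA box and 1.93% an E2F-type match, so single matches of the first 2 kinds are common. A match is a description of the letters and no evidence of binding.

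Total counts per library ranged from 1061359 to 5250260 with a median of 3702007. Levels are given as CPM, the counts in each 1000000 of a library's total, with the totals scaled by edgeR's TMM factors. The mean total was lower at C5 than at C1 in all 8 chemicals, and the proportion was smallest in vorinostat, with 3038900 at C1 and 1485590 at C5. Of 118 libraries, 12 correlated with the other libraries of their own group at a mean r under 0.9. They were all 3 of mocetinostat C2, all 3 of scriptaid C4, mocetinostat C3 replicate 1, apicidin C4 replicate 1, panobinostat C2 replicate 2, trichostatin A C1 replicate 3, and valproic acid C4 replicates 2 and 3. The hepatocyte markers (ALB, APOA1, TTR, SERPINA1, CYP3A4 and TAT) were present, with a summed level of 11340 to 46754 CPM at C1. The endothelial markers (VWF, CDH5 and PECAM1) summed to at most 16.7 CPM at C1. Of the leukocyte genes, PTPRC and CD3E had a median of 0 CPM there, while CD68 had a median of 43.2 CPM.

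The 2 BMI1 probes differed widely in how many reads they gave. BMI1_26900 had between 94 and 1917 counts per library, with a median of 314 CPM. BMI1_732 had at most 3 counts in 57 of 118 libraries and passed the filter on low counts in 2 of 8 chemicals, trichostatin A and valproic acid. The other 9 probe rows passed in all 8. The table does not give the probes' target sites, and BMI1 lies beside COMMD3 and shares a readthrough transcript with it in RefSeq, so the transcript behind each BMI1 probe was not settled. Median levels of the other probes were 187 CPM for SUZ12_6905, 43.8 CPM for CBX2_24759, 41.6 CPM for EZH2_2282, 12.1 CPM for PCGF2_24298, 8.93 CPM for EZH1_21671, 7.94 CPM for JARID2_10461, 6.99 CPM for CBX7_11965 and 4.27 CPM for EED_2035. Probes differ in efficiency, so these levels do not order the genes. They do set the precision: EED had a median of 15 counts per library, and SUZ12 a median of 666.

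Most member probes were not called at the highest concentration. A probe was called when its adjusted p (edgeR quasi-likelihood F test, Benjamini-Hochberg over all probes tested in that chemical) was under 0.05 and its change at least 1.5-fold. Over the 8 chemicals there were 74 tests of member probes at C5 against C1, of which 6 were calls up and 2 were calls down. These are 8.11% and 2.7% of the tests, beside 11.6% rising and 13.4% falling over all probes. JARID2 rose in 4 chemicals, CBX2 rose in 2 and EZH2 fell in 2. EZH1, EED, SUZ12, both BMI1 probes, PCGF2 and CBX7 had 0 edgeR calls in their 50 tests at C5, with 7 of these at an unadjusted p under 0.05, and DESeq2's Wald test called 1 of them, EZH1 in vorinostat.

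**Figure D1:**
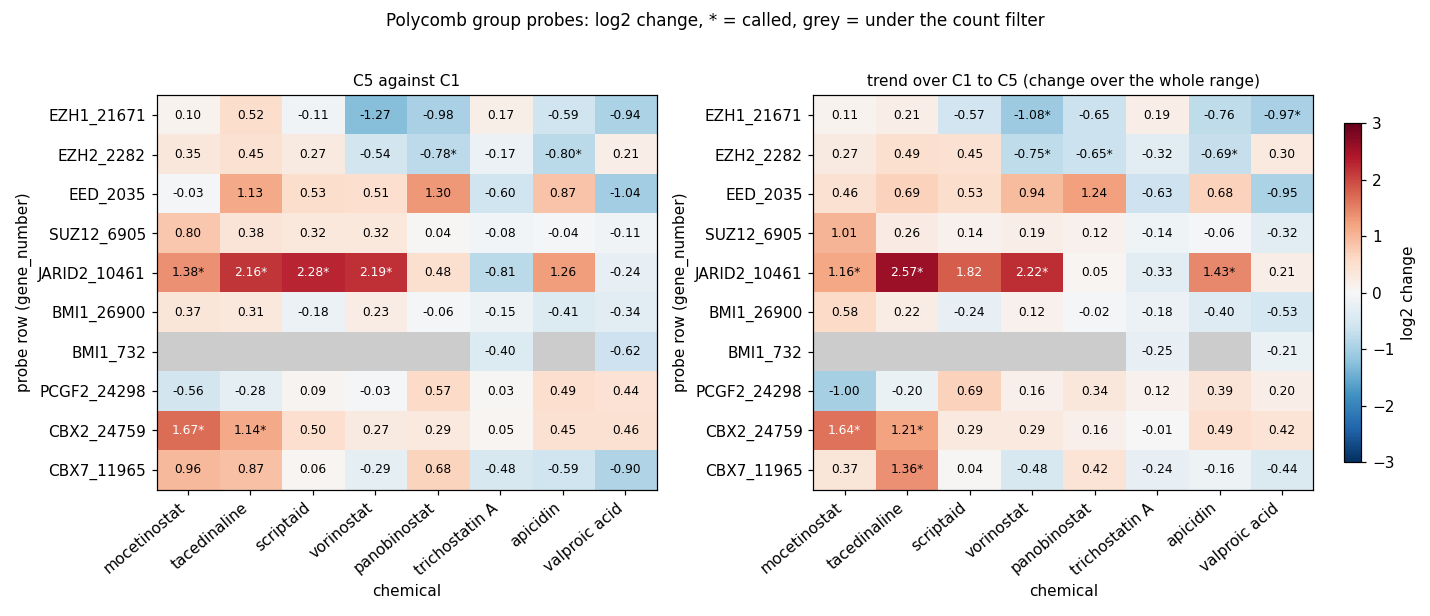
Log2 change of each Polycomb probe (rows) in each chemical (columns), at C5 against C1 on the left and as the fitted change over C1 to C5 on the right; numbers are the log2 changes, a star marks a call and grey a probe under the count filter. JARID2_10461 holds the largest rises (up to 2.28 at C5), CBX2_24759 is starred in the 2 benzamides alone, and EZH2_2282 has values of both signs.

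The share of all probes that was called sets the scale for these counts. Rising and falling at C5 were called 22.7% and 24.9% of the probes in vorinostat, 18.7% and 20.1% in tacedinaline, 14.8% and 15.7% in mocetinostat, and 13.8% and 15% in apicidin. The shares were 12.8% and 17% in scriptaid, 6.77% and 9.46% in panobinostat, 4.84% and 6.22% in valproic acid, and 0% and 0.0154% in trichostatin A. In trichostatin A and in valproic acid 0 of 10 member probes were called at C5 by edgeR, with 0 and 2 at an unadjusted p under 0.05, and DESeq2's Wald test called 0 in either. The median change of the member probes was between -0.29 (valproic acid) and 0.52 (tacedinaline) on the log2 scale. The median over all probes was at most 0.08 in any chemical.

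JARID2, the accessory PRC2 subunit, was the member called most often. In tacedinaline it stood at 3.33, 3.25 and 10.3 CPM in replicates 1, 2 and 3 at C1, and at 20.5, 24.5 and 33.4 CPM at C5. The C1 library of replicate 1 was shallow, with a total of 1243100 counts, so its level rests on few reads. All 3 libraries at C5 were above all 3 at C1, as were those at C3 and C4. The log2 change was 2.16 (SE 0.40), a 4.46-fold rise, with an adjusted p of 2.49e-05 in edgeR.

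The tacedinaline rise began at a middle concentration. JARID2 stood at 5.51, 5.57 and 5.98 CPM at C2, at 12.0, 16.4 and 13.3 CPM at C3 and at 34.5, 20.5 and 26.7 CPM at C4. It was called at C3 (log2 change 1.20, edgeR adjusted p = 0.0467) and at C4 (2.18, adjusted p = 2.48e-05). The C3 call was lost without replicate 1 (adjusted p = 0.181), without replicate 2 (0.494), without the count filter (0.0707) and with DESeq2's size factors (0.0507). The C4 and C5 libraries overlapped each other.

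In vorinostat JARID2 rose from 3.87, 8.53 and 1.56 CPM at C1 to 27.002, 20.0 and 15.2 CPM at C5. The groups did not overlap. The rise was 2.19 (SE 0.52) on the log2 scale, or 4.55-fold, with an edgeR adjusted p of 0.000721. These levels rest on few reads, with 7, 34 and 5 counts at C1 and 33, 42 and 26 counts at C5, while the mean total was lower at C5.

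Scriptaid gave a rise of like size but a different course. JARID2 stood at 3.38, 7.40 and 4.31 CPM at C1 and at 20.0, 17.9 and 34.3 CPM at C5, with a log2 change of 2.28 (SE 0.68) and an edgeR adjusted p of 0.0163. At C4 it was still at 7.07 and 7.59 CPM in replicates 1 and 2. In replicate 3 the count at C4 was 0, which allows up to 3 counts, and all 3 libraries of that group were among those unlike their group mates. The call at C5 was lost without replicate 1 (adjusted p = 0.144) and without replicate 2 (adjusted p = 0.0638), at log2 changes of 2.16 and 2.85.

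Mocetinostat gave a smaller rise, with little spread at C1 and at C5. At C2 and C3 JARID2 spread more, from 7.24 to 20.9 CPM and from 9.82 to 24.2 CPM. Libraries unlike their group mates lie in both of those groups. JARID2 stood at 9.46, 8.17 and 7.29 CPM at C1 and at 20.6, 21.4 and 19.9 CPM at C5. This 2.60-fold rise, 1.38 on the log2 scale (SE 0.41), had an edgeR adjusted p of 0.0174. Without replicate 2 the change was 1.33 and the adjusted p was 0.195.

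In apicidin JARID2 was not called at C5, and its groups overlapped. The levels were 8.62, 4.49 and 5.67 CPM at C1 and 16.6, 20.3 and 8.19 CPM at C5, with a log2 change of 1.26 (95% interval 0.18 to 2.34, edgeR adjusted p = 0.0840). When the 12 libraries unlike their group mates were left out, the same change was 1.25 with an adjusted p of 0.0275, which passes the threshold. It also passed without the count filter (1.25, adjusted p = 0.0304) and without replicate 1 (1.49, adjusted p = 0.0435).

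The remaining chemicals gave no call for JARID2. Panobinostat had a log2 change of 0.48 (95% interval -0.61 to 1.58), valproic acid -0.24 (-1.28 to 0.81) and trichostatin A -0.81 (-2.17 to 0.54). In trichostatin A the C1 level of replicate 3, 1.20 CPM, came from one of the libraries unlike its group mates, and the C5 levels were 2.91, 1.82 and 4.72 CPM. These intervals are wide enough to hold changes of more than 1.5-fold.

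**Figure D2:**
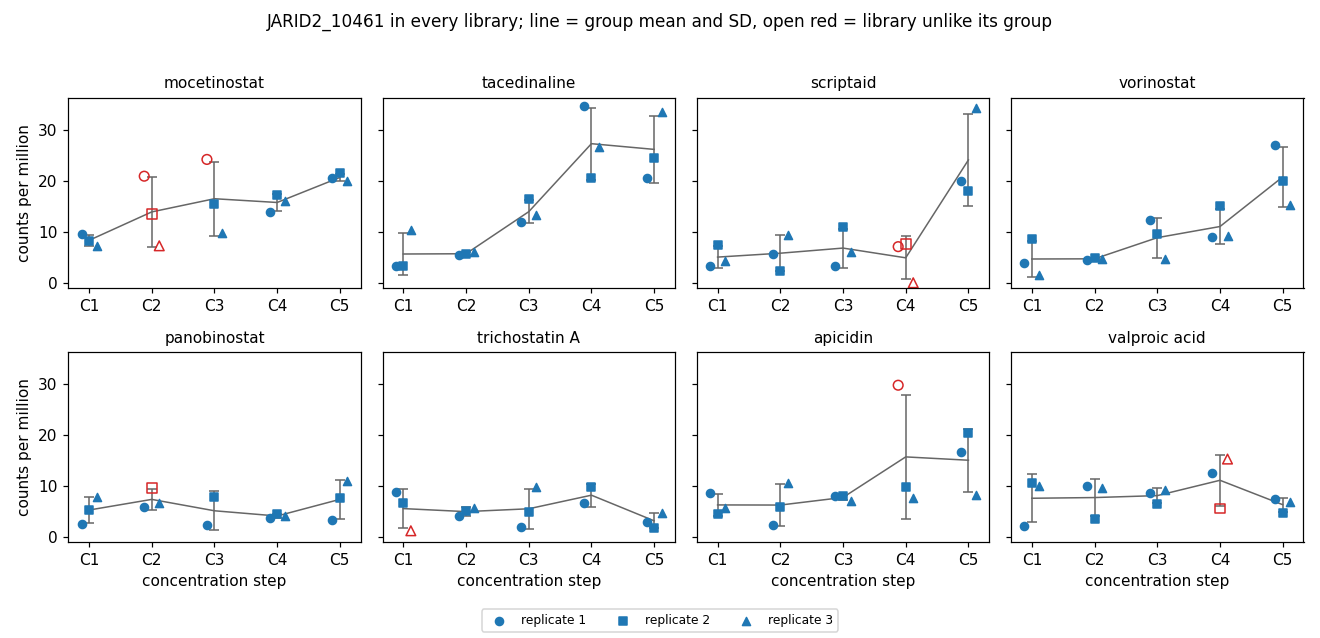
JARID2_10461 level (CPM, vertical) at concentration steps C1 to C5 (horizontal), 1 panel per chemical and 1 point per library; marker shapes are replicates (HepaRG batches), lines and bars are group means and SD, and open red markers are the 12 libraries unlike their group. Tacedinaline climbs from C3, scriptaid only at C5, and panobinostat, trichostatin A and valproic acid stay between 1.20 and 15.2 CPM.

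The trend over all 5 concentrations, as a slope on log2 concentration expressed as the fitted change from C1 to C5, called JARID2 in 4 chemicals. The fitted log2 rise was 2.57 in tacedinaline (edgeR adjusted p = 1.71e-06), 2.22 in vorinostat (0.000321), 1.43 in apicidin (0.0216) and 1.16 in mocetinostat (0.0175). The shares of all probes called by trend in these chemicals were 43.3%, 47.4%, 34.4% and 35.6%. The call in apicidin was lost without replicate 1 (adjusted p = 0.0535) and without replicate 2 (0.200). That in mocetinostat was lost without replicate 2 (0.144) and without replicate 3 (0.139). Scriptaid, where 13% of the probes were called, had a fitted JARID2 rise of 1.82 that did not pass. Without the libraries unlike their group mates, which removes its whole C4 group, that rise was 2.15 with an adjusted p of 0.0110.

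Mean total counts were lower at C5 than at C1 in the 4 chemicals with a JARID2 call at C5, going from 2950850 to 2110830 in tacedinaline, 3646510 to 2325350 in scriptaid and 4510230 to 3462580 in mocetinostat, beside vorinostat given above. The mean hepatocyte marker sum was lower in the same chemicals, going from 36250 to 3411 CPM in tacedinaline, 32206 to 4971 CPM in vorinostat, 34066 to 6462 CPM in scriptaid and 41455 to 7027 CPM in mocetinostat. The part of either in the JARID2 levels was not tested. In bulk lysates, a change in the share of a cell type and a change in RNA per cell cannot be told apart.

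CBX2, a chromobox subunit of PRC1, rose in both benzamides. In mocetinostat it stood at 33.6, 43.4 and 46.2 CPM at C1 in replicates 1, 2 and 3, and at 124, 141 and 108 CPM at C5. Every C5 library exceeded every C1 library by more than the whole C1 range. The log2 change was 1.67 (SE 0.26), a 3.18-fold rise, with an edgeR adjusted p of 0.000136.

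The mocetinostat levels of CBX2 climbed step by step. At C3 they were 85.4, 82.8 and 91.1 CPM (log2 change 1.09, edgeR adjusted p = 0.0101), and at C4 they were 114, 111 and 125 CPM (1.55, adjusted p = 0.000366). At C2 they ranged from 45.4 to 88.9 CPM in libraries that were all unlike their group mates, and no call was made. The C3 call was lost without replicate 1 (adjusted p = 0.0801) and without replicate 2 (0.188). Without the 12 unlike libraries it stood at 1.05 with an adjusted p of 0.000327.

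In tacedinaline CBX2 rose from 38.3, 43.7 and 49.9 CPM at C1 to 104, 73.5 and 107 CPM at C5. The groups did not overlap. CBX2 was 2.21-fold higher at C5, a log2 change of 1.14 (SE 0.20), with an edgeR adjusted p of 1.04e-05. At C4 the levels were 80.2, 89.4 and 94.7 CPM (log2 change 1.01, adjusted p = 7.83e-05), and at C3 55.4, 55.4 and 58.0 CPM, without a call. The trend called CBX2 in the same 2 chemicals, with fitted log2 rises of 1.64 (adjusted p = 2.79e-05) and 1.21 (2.81e-06). With libraries scaled by their totals alone, CBX2 also passed by trend in apicidin (0.60, adjusted p = 0.00919) and valproic acid (0.59, adjusted p = 0.0290).

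The log2 change of CBX2 was above 0 in the other 6 chemicals too, without a call in any. It was 0.50 in scriptaid (95% interval -0.12 to 1.12), 0.46 in valproic acid (0.01 to 0.91), 0.45 in apicidin (0.07 to 0.84), 0.29 in panobinostat (-0.13 to 0.71), 0.27 in vorinostat (-0.21 to 0.74) and 0.05 in trichostatin A (-0.40 to 0.50). In apicidin the C5 levels, 48.1, 43.8 and 51.4 CPM, all lay above the C1 levels of 34.9, 34.0 and 36.2 CPM. The share of all probes whose groups separated in this way was not counted. Concentrations were not matched between compounds, so these values stand side by side and no pair of compounds was compared.

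**Figure D3:**
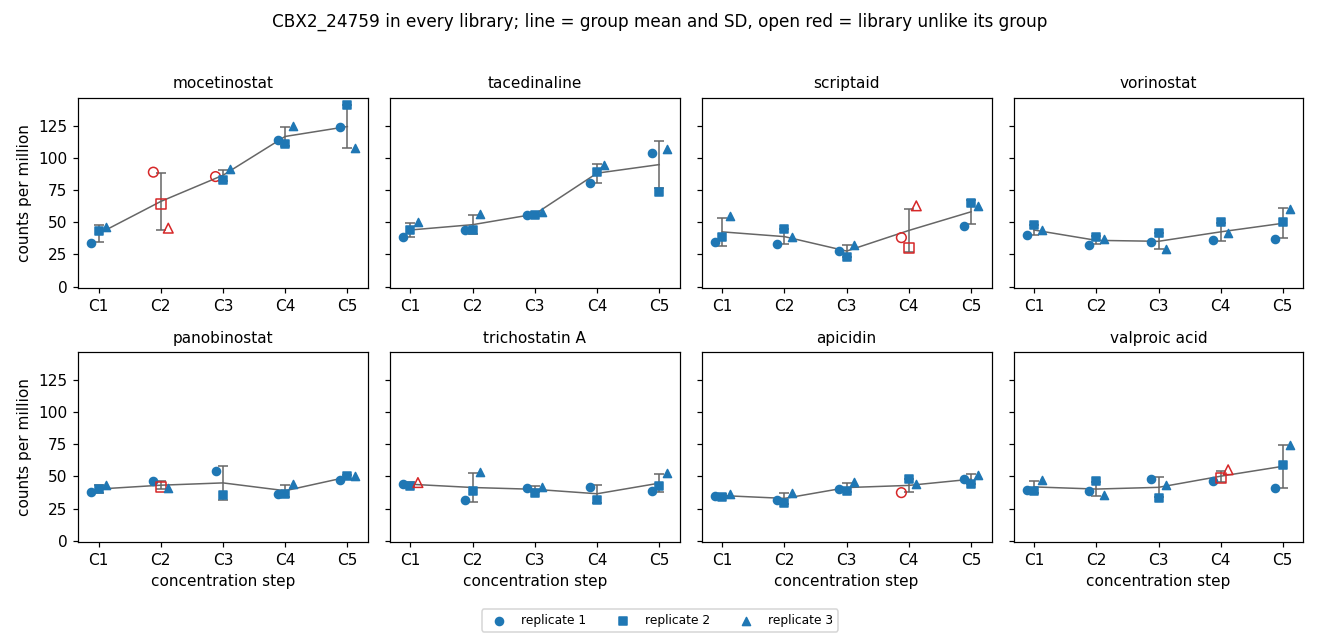
CBX2_24759 level (CPM, vertical) at concentration steps C1 to C5 (horizontal), drawn as for JARID2, with group means and SD. The benzamides mocetinostat and tacedinaline reach means of 124 and 94.7 CPM at C5, while the C5 means of the other 6 chemicals lie between 44.7 and 58.1 CPM.

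EZH2, the catalytic subunit linked with dividing cells, fell in 2 chemicals at C5. In panobinostat it stood at 66.8, 54.2 and 64.6 CPM at C1 and at 34.3, 32.0 and 42.6 CPM at C5. The groups did not overlap, and EZH2 changed by -0.78 on the log2 scale (SE 0.21), 1.72-fold, with an edgeR adjusted p of 0.0132. The call was lost without replicate 1 (adjusted p = 0.186) and without replicate 3 (0.0801).

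In apicidin EZH2 fell from 40.4, 42.1 and 49.4 CPM at C1 to 34.4, 17.1 and 23.8 CPM at C5. The change within a batch was -0.22 on the log2 scale in replicate 1, and -1.27 and -1.04 in the others. The fitted change was -0.80 (SE 0.29) with an edgeR adjusted p of 0.0391. It was lost without replicate 2 (adjusted p = 0.193) and without replicate 3 (0.274), and when libraries were scaled by their totals alone (0.0716).

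In vorinostat EZH2 was called down at C4 and not at C5. The levels were 35.4, 47.7 and 40.5 CPM at C1, 23.3, 19.7 and 19.7 CPM at C4 and 23.7, 29.0 and 26.3 CPM at C5. Both groups lay wholly below C1. At C4 the log2 change was -0.96 (SE 0.27, edgeR adjusted p = 0.00537), and at C5 it was -0.54 (95% interval -1.09 to 0.00, adjusted p = 0.0941). The C4 call was lost without replicate 2 (adjusted p = 0.0967).

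The trend called EZH2 down in these 3 chemicals, by fitted log2 changes of -0.75 in vorinostat (edgeR adjusted p = 0.0220), -0.69 in apicidin (0.0270) and -0.65 in panobinostat (0.0180). The share of probes called by trend in panobinostat was 17.4%. The apicidin call was lost without replicate 2 or 3, the vorinostat and panobinostat calls without any 1 of the replicates, and all 3 when libraries were scaled by their totals alone. The other 5 chemicals had EZH2 changes at C5 between -0.17 (trichostatin A) and 0.45 (tacedinaline), none called. In tacedinaline the levels were 39.2, 40.7 and 47.7 CPM at C1 and 47.0, 52.8 and 68.9 CPM at C5, overlapping by a small margin, with a 95% interval of -0.01 to 0.92. With libraries scaled by their totals alone that change was 0.64 with an adjusted p of 0.0226, which passes the threshold, as does the trend (0.72, adjusted p = 0.00514).

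**Figure D4:**
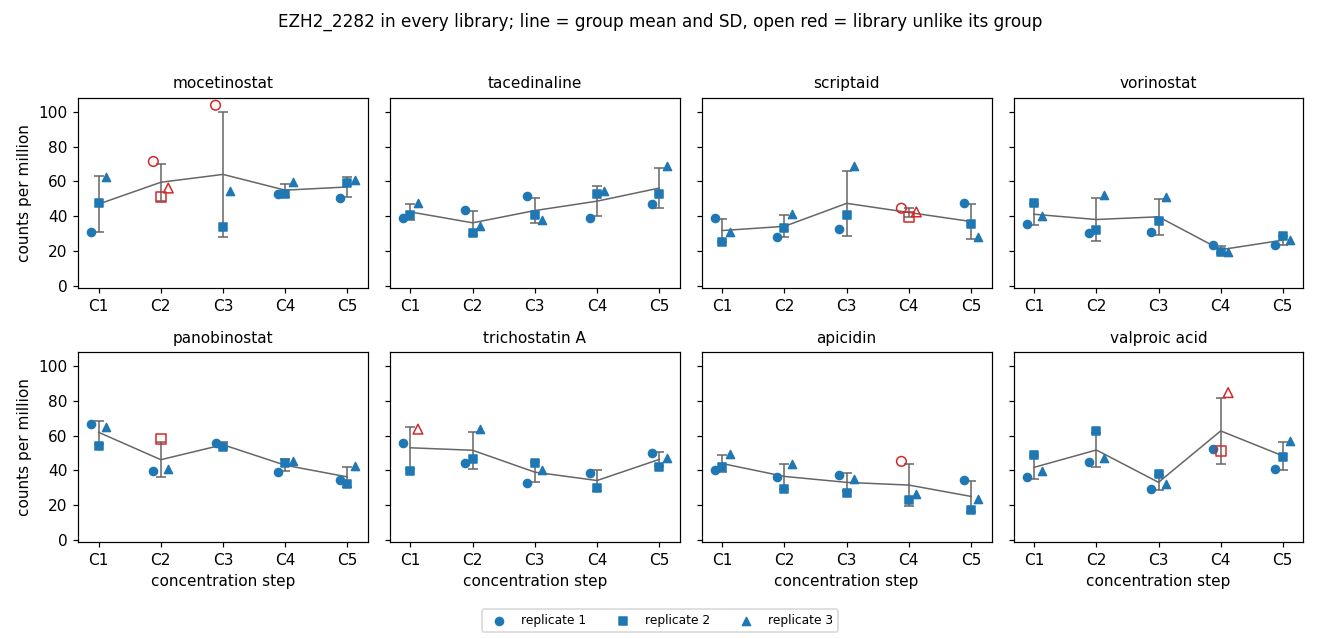
EZH2_2282 level (CPM, vertical) at concentration steps C1 to C5 (horizontal), drawn as for JARID2, with group means and SD. Apicidin, panobinostat and vorinostat end below their C1 means of 43.9, 61.9 and 41.2 CPM, and tacedinaline ends above its C1 mean of 42.5 CPM.

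EZH1, the catalytic alternative to EZH2, was called by trend in 2 chemicals and at no single step against C1 in edgeR with all libraries. In vorinostat its levels were 8.30, 15.3 and 9.96 CPM at C1 and 6.55, 2.38 and 4.68 CPM at C5, on 5 to 8 counts per library at C5. The fitted log2 change was -1.08 (SE 0.44, edgeR adjusted p = 0.0445), and with the HepaRG batch as a replicate block the adjusted p was 0.0566. In valproic acid, where 14.9% of probes were called by trend, the levels were 18.5, 7.58 and 14.5 CPM at C1 and 8.02, 9.75 and 3.39 CPM at C5. The fitted change was -0.97 (SE 0.32, adjusted p = 0.0379). Within batches the log2 difference between C5 and C1 was -1.15, 0.34 and -1.92, so replicate 2 ran the other way. Both calls were lost under several alternatives, and at C5 against C1 EZH1 ranged from -1.27 (vorinostat, edgeR adjusted p = 0.0649) to 0.52 (tacedinaline). The vorinostat change at C5 passed by DESeq2's Wald test (-1.31, adjusted p = 0.0424) and in edgeR without replicate 1 (-1.79, adjusted p = 0.0443).

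EED and SUZ12, which complete the PRC2 core, had no call at C5 or by trend. EED changed by -1.04 (valproic acid) to 1.30 (panobinostat) on the log2 scale at C5, with adjusted p-values from 0.174 to 0.987. Its counts were low, with at most 3 in 9 libraries. The 95% interval in panobinostat, -0.27 to 2.87, shows what this depth and the spread between libraries could resolve. SUZ12 changed by -0.11 to 0.80. Its lowest adjusted p was 0.0421 in tacedinaline, where the levels were 167, 177 and 170 CPM at C1 and 207, 242 and 193 CPM at C5. These groups did not overlap, but the log2 change of 0.38 lies under 1.5-fold.

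The largest SUZ12 change, 0.80 in mocetinostat, was not called. The levels were 194, 201 and 84.0 CPM at C1 and 265, 287 and 244 CPM at C5, and the adjusted p was 0.296. Without the 12 libraries the change was 0.74 with an adjusted p of 0.00511, and the trend also passed (0.75, adjusted p = 0.00540). Leaving them out was chosen after the data were seen.

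BMI1 and PCGF2, the alternative PRC1 subunits, also had no call at C5 or by trend. BMI1_26900 changed by -0.41 (apicidin) to 0.37 (mocetinostat) at C5. It was called at one step, C4 of valproic acid, where the levels were 382, 342 and 367 CPM at C1 and 166, 310 and 66.9 CPM at C4. The fitted change was -1.01 (SE 0.31, edgeR adjusted p = 0.0333), and the change within a batch was -2.45 in replicate 3 and -0.14 in replicate 2. Without replicate 3, whose C4 library is among those unlike their group mates, the change was -0.63 with an adjusted p of 0.0888, and without replicate 1 it was -0.91 with an adjusted p of 0.342. With the 12 libraries left out, which keeps replicate 1 alone at C4, it was -1.15. At C5 of valproic acid the levels were 305, 223 and 334 CPM, with no call. PCGF2 changed by -0.56 to 0.57 at C5, with adjusted p-values of 0.354 and above.

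SUZ12 and BMI1 were low together in single libraries. In mocetinostat C2 BMI1_26900 stood at 25.2 and 44.6 CPM in replicates 1 and 2 and at 228 CPM in replicate 3. SUZ12 stood at 33.5, 44.0 and 214 CPM in the same libraries. The pattern was the same in mocetinostat C3 replicate 1 (52.4 and 66.3 CPM), apicidin C4 replicate 1 (68.9 and 58.6 CPM), valproic acid C4 replicate 3 (66.9 and 54.8 CPM) and panobinostat C2 replicate 2 (120 and 55.2 CPM). The next lowest library for both, mocetinostat C1 replicate 3, had 155 CPM of BMI1 and 84.0 CPM of SUZ12.

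All 6 of these libraries are from plate H and among the 12 unlike their group mates. Over the 12, SUZ12 had a median of 91.5 CPM against 188 CPM in the other 106, and BMI1_26900 a median of 144 CPM against 316 CPM. EZH2 and PCGF2 ran the other way, with medians of 53.8 against 40.6 CPM and 18.0 against 11.6 CPM. The medians of JARID2 (8.60 against 7.94 CPM) and CBX2 (46.9 against 43.7 CPM) were close, but they pool different chemicals and steps. Within their groups, the 6 libraries low in SUZ12 and BMI1 had more JARID2 than the remaining libraries. In apicidin C4 it was 29.7 CPM in replicate 1, beside 9.75 and 7.55 CPM in replicates 2 and 3. In mocetinostat C2 it was 20.9 and 13.5 CPM in replicates 1 and 2, beside 7.24 CPM in replicate 3. CBX2 went both ways, at 88.9 and 64.2 against 45.4 CPM in mocetinostat C2 and 37.3 against 47.6 and 43.9 CPM in apicidin C4. The 12 libraries come from middle concentrations except trichostatin A C1 replicate 3, so the C5 and C1 levels of the other 7 chemicals do not include them.

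**Figure D5:**
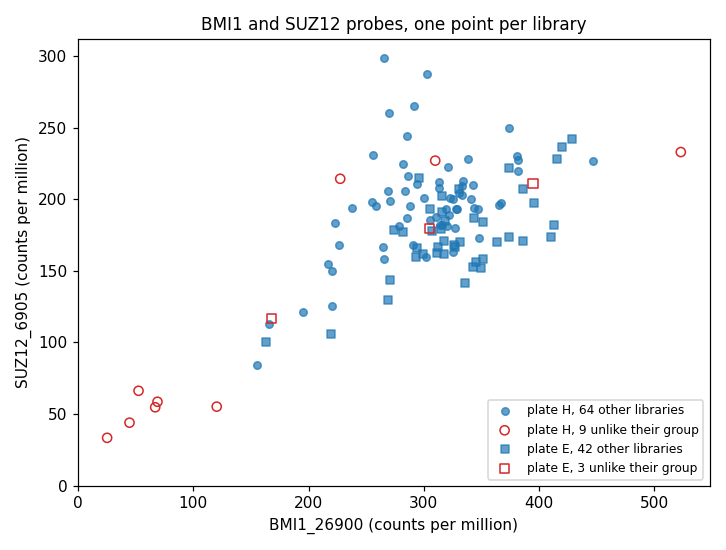
SUZ12_6905 level against BMI1_26900 level (both in CPM), 1 point per library; circles are plate H, squares plate E, and open red markers the 12 libraries unlike their group. The 6 lowest open circles lie at 25.2 to 120 CPM of BMI1 and 33.5 to 66.3 CPM of SUZ12, below every other library.

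CBX7, the other chromobox subunit, was called once, by trend in tacedinaline (fitted log2 rise 1.36, SE 0.51, edgeR adjusted p = 0.0288). Its levels there were 6.67, 4.72 and 7.86 CPM at C1, 6.75, 18.4 and 14.7 CPM at C4 and 12.0, 5.17 and 16.9 CPM at C5. The C1 and C5 groups overlapped through replicate 2. The call was lost without replicate 2 (adjusted p = 0.0964) and without replicate 3 (0.149). At C5 CBX7 changed by -0.90 (valproic acid) to 0.96 (mocetinostat) without a call, though with library totals alone the mocetinostat change passed (1.14, adjusted p = 0.0492).

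At C4 the members gave 5 calls against C1 over the 8 chemicals, all given above: JARID2 and CBX2 up in tacedinaline, CBX2 up in mocetinostat, EZH2 down in vorinostat and BMI1_26900 down in valproic acid. The shares of all probes called at C4 were 32.8% in tacedinaline, 32.3% in vorinostat, 23.7% in mocetinostat, 22.3% in apicidin, 11.9% in valproic acid, 4.87% in scriptaid, 2.56% in panobinostat and 0% in trichostatin A. At C3 there were 2 member calls, JARID2 in tacedinaline and CBX2 in mocetinostat. Over all probes at C3, 678 rose and 805 fell of 12461 in tacedinaline, and 842 and 671 of 13065 in mocetinostat. At C2 there were 0 edgeR calls in 74 tests, with 4 at an unadjusted p under 0.05 and 0 calls by DESeq2's Wald test. Calls at C2 were few over all probes too, at most 37 up and 11 down of 12461, in tacedinaline. By trend the members gave 7 calls up and 5 down in 74 tests, and trichostatin A, where 0.0616% of probes were called, had none of them. Over all probes the share called by trend was 13% for scriptaid, 14.9% for valproic acid and 17.4% for panobinostat. It reached 34.4% for apicidin, 35.6% for mocetinostat, 43.3% for tacedinaline and 47.4% for vorinostat.

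Whether the C5 change differed between chemicals was tested for each probe in 1 model of all 118 libraries. It differed between the 8 chemicals for CBX2 (edgeR adjusted p = 7.02e-05), JARID2 (0.00447) and EZH2 (0.00825), beside 30.3% of all probes. Leaving trichostatin A out of the contrast, it differed between the other 7 for CBX2 (0.000389) and EZH2 (0.00650), beside 21.4% of all probes, and the adjusted p for JARID2 was 0.0761. The test does not account for the unequal concentrations. For EZH1, EED, SUZ12, BMI1, PCGF2 and CBX7 the adjusted p-values were between 0.205 and 0.887 over the 8 chemicals.

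Other subunits of the same complexes were described from lists written with earlier results of these data known. Of the PRC2 list (9 of 11 listed genes in the table, 14 probes), 21 tests of 88 were calls up and 12 calls down at C5, or 23.9% and 13.6%, beside 11.6% and 13.4% over all probes. MTF2 and PHF1, which tether PRC2 to CpG-rich DNA, rose in the same 5 chemicals, apicidin, mocetinostat, scriptaid, tacedinaline and vorinostat, by 0.60 to 0.89 and by 0.72 to 1.94 on the log2 scale. PHF19, the third member of that protein family, fell. Its probe PHF19_27677 was called down in 7 chemicals, by -1.51 to -4.16, and PHF19_22914 in 5, by -1.64 to -2.27. The median change of the list ran from -0.07 (apicidin) to 0.72 (mocetinostat), and that of all probes from 0.00 to 0.08.

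Of the PRC1 list (21 genes, 23 probes), 28 tests of 183 were calls up and 18 calls down, or 15.3% and 9.84%, beside the same 11.6% and 13.4% over all probes. RYBP, a subunit of variant PRC1 complexes, rose in 6 chemicals by 0.63 to 2.04, the largest in mocetinostat. RING1, one of the ubiquitin ligases of PRC1, rose in 5 chemicals by 0.91 to 1.72, the largest in vorinostat (SE 0.13, edgeR adjusted p = 2.31e-13). SCMH1, a PRC1-associated protein, fell in 5 chemicals by -1.30 to -2.63. The list median lay between -0.37 and 0.18.

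The genes that oppose Polycomb marks, namely subunits and partners of the H2A deubiquitinase complex and the H3K27 demethylases, gave 10 calls up and 4 down in 80 tests. These shares, 12.5% and 5%, lie near and below the 11.6% and 13.4% over all probes. FOXK1 and FOXK2, transcription factors that bind that deubiquitinase, each rose in apicidin, mocetinostat, scriptaid, tacedinaline and vorinostat, by 0.62 to 0.96 and by 1.13 to 1.55. The demethylase KDM6A had no call, with changes of -0.24 to 0.70. KDM6B, the other demethylase of the list, was called down in vorinostat alone (-2.05, edgeR adjusted p = 0.00571). BAP1, the deubiquitinase itself, passed the filter in 3 chemicals, with a median of 0.78 CPM at C1, and had no call. KDM6A, KDM6B and BAP1 fall outside the rule for naming and were picked after their values were seen.

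A list of genes that Polycomb is known to silence in other cells held 24 genes with 29 probes, of which only 5 to 7 passed the count filter in a chemical, and HOXA9, PAX6 and SOX1 had a median of 0 CPM at C1. There were 48 tests, with 6 calls up and 4 down, or 12.5% and 8.33%, beside 11.6% and 13.4% over all probes. KLF2 and SLIT2 each rose in 3 chemicals and DAB2IP fell in 3, so none reached the 5 chemicals set for naming by rule, and these 3 were picked after their values were seen. KLF2 rose by 2.74 to 2.93 in mocetinostat, tacedinaline and vorinostat. SLIT2 rose by 1.06 to 1.51 in apicidin, scriptaid and vorinostat. DAB2IP changed by -0.85 to -2.12 in panobinostat, scriptaid and vorinostat.

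Genes of dividing cells were measured beside EZH2. Of 119 tests of the proliferation list (16 genes, 17 probes), 2 were calls up and 56 calls down, or 1.68% and 47.1%, beside 11.6% and 13.4% over all probes. TYMS and MKI67 fell in 7 chemicals each, TYMS by -1.03 to -4.38. TOP2A and CCNA2 fell in 6 chemicals each, and AURKB, CCNB1, CDK1 and BUB1 in 5 each. The list median at C5 was -2.85 in vorinostat, -2.41 in apicidin, -1.43 in scriptaid, -1.23 in panobinostat, -0.56 in valproic acid, -0.30 in mocetinostat, and -0.08 in both tacedinaline and trichostatin A. EZH2 was called down at C5 or by trend in vorinostat, apicidin and panobinostat and not in scriptaid or valproic acid, where its changes were 0.27 and 0.21. The part of proliferation in the EZH2 level was not tested.

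Marker lists moved with concentration as well. Hepatocyte markers gave 45 calls down in 56 edgeR tests at C5, all of them in the 7 chemicals other than trichostatin A. Biliary or progenitor markers gave 6 calls up in 25 tests, 5 of them for SOX9, while KRT7 and EPCAM had medians of at most 1.09 CPM at C1. Stromal markers gave 6 calls up, all for COL1A1, and 14 down in 26 tests, for ACTA2 and COL3A1. Leukocyte markers gave 1 call down in 8 tests, for CD68. Endothelial markers passed the filter in 2 tests, and neither was a call. The part of these shifts in the member levels was not tested.

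The probes whose pattern was most like those of JARID2 and CBX2 were found by Pearson correlation over the 40 group means of log2 CPM, each chemical centred on its own mean, among 11287 probes. The group means share plates and depth, and the values are descriptions with no test. For JARID2 the highest were CORO1C_16012 (r = 0.91), CBWD2_88772 (0.90) and PSAP_5489 (0.90), and the lowest was ECI1_22689 (-0.94). For CBX2, DUSP18_15067 (0.91) and AC106795.1_15246 (0.89) were 2 of the 3 highest, and the lowest was SAGE1_14551 (-0.91). JARID2 and CBX2 themselves correlated at r = 0.61 over the same means.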

How the data were processed

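The deposited table held whole-number TempO-Seq counts per detector probe, made by the authors before deposit. The submitters' processing notes name bcl2fastq 2.20.422, fastp 0.23.2, STAR 2.7.10b and DESeq2 1.38.0 without a role or order, and the genome build is not given in the sources used here. Probe counts without molecular identifiers are not independent molecules, and floors (3 counts) cover counting error only. The SEs and intervals of the log2 changes come from the edgeR fit and also carry the spread between libraries.

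Groups came from the sample labels. Of 22069 rows, 1 with missing values was left out. No column was unused. For each chemical, edgeR 4.0.16 (R 4.3.3; TMM scaling, filterByExpr, quasi-likelihood F test, prior count 2) compared C2 to C5 with C1, contrasts that share the C1 libraries, and fitted a slope on log2 concentration. DESeq2 1.42.0 was an alternative. A call needed a Benjamini-Hochberg adjusted p under 0.05 over all probes tested and at least a 1.5-fold change. Whether 2 groups of libraries overlapped is a description of the member probes. Its share over all probes was not counted, so it adds no support to a change. One model of all 118 libraries tested whether the C5 change differed between chemicals. The scripts were tested on simulated data. Replicate numbers mark HepaRG batches in the labels, which pairs the samples: the median correlation of deviations from group means was 0.053 over 232 same-batch pairs and -0.024 over 464 others. Whether libraries of a batch came from separate cultures is not stated, so p-values measure the spread between these samples. No libraries held identical values. Alternatives were DESeq2's size factors, library totals alone, no count filter, the replicate block, leaving out each replicate, and, added after seeing the data, leaving out the 12 libraries with a mean r under 0.9 to their group mates.

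Members, lists and tests were chosen with earlier results of these data known. The text names every member and, of the other lists, genes called in the same direction in at least 5 chemicals, beside a few named as picked after their values were seen. Promoter stretches are RefSeq's. One hepatocyte marker and one probe similar to CBX2 are not reported here.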

Additional observations from a re-analysis of the deposited data

Results flagged for a closer look

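The change from C1 to C5 differed between chemicals for 3 of the 9 Polycomb genes, by the test of the difference itself in 1 edgeR model of all libraries. Among all probes it differed for 30.3% over 8 chemicals and for 21.4% over the 7 other than trichostatin A. For CBX2_24759 the adjusted p was 7.02e-05 over 8 chemicals and 0.000389 over the 7 other than trichostatin A. The changes ran from 0.05 in trichostatin A to 1.67 in mocetinostat on the log2 scale. The difference over 8 chemicals did not pass without replicate 1 (0.0992) or without replicate 2 (0.0587). For EZH2_2282 the adjusted p was 0.00825 over 8 chemicals and 0.00650 over 7, with changes from -0.80 in apicidin to 0.45 in tacedinaline. It did not pass over 8 chemicals without replicate 2 (0.281) or without replicate 3 (0.0576). For JARID2_10461 the adjusted p was 0.00447 over 8 chemicals, with changes from -0.81 in trichostatin A to 2.28 in scriptaid. It did not pass without replicate 1 (0.0984) or without replicate 2 (0.149). Over the 7 chemicals JARID2 was at 0.0761, and at 0.0139 once the 12 libraries unlike their group mates were left out.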

How the results depend on the processing

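Of 27 single member calls, none turned its direction under any alternative, and of 243 recomputed values 197 kept the call and 46 did not. JARID2 in tacedinaline (C4, C5 and trend) and vorinostat (C5 and trend), and CBX2 in both benzamides (C4, C5 and trend), kept their calls in all 9 alternatives run for each. For tacedinaline and vorinostat 1 of these, leaving out the 12 libraries, removed none of theirs and repeated the main fit. Such repeats are counted among the 197. At C5 the members gave 6 calls up, 4 to 6 when 1 replicate was left out and 6 with the replicate block, and 2 calls down, 0 to 2 when 1 replicate was left out. By trend the 7 calls up became 4 to 7 and the 5 calls down 0 to 5 when replicates or the trichostatin A C1 library unlike its group were left out. With library totals alone, rising calls were 8 at C5 and 10 by trend, and falling calls were 1 at C5 and 0 by trend. That scaling moved the median log2 change of all probes most in tacedinaline, from 0.03 to 0.22, and in mocetinostat from 0.08 to 0.27, so rises and falls are relative to TMM. Without the count filter 3 fell by trend. Members differing between chemicals numbered 3 over 8 and 2 over 7 chemicals, 0 to 2 in both cases when 1 replicate was left out of all chemicals, and 4 over 7 without the 12 libraries unlike their group mates, where JARID2 (adjusted p = 0.0139) and BMI1_26900 (0.0433) were added. The replicate block, which pairs libraries of a HepaRG batch, took away 1 member call, EZH1 by trend in vorinostat, and changed no other. Depth limited EED and BMI1_732 most, with medians of 15 and 4 counts per library.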
